A study of Mus musculus with 14 samples.

Results

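The genes described here are 10 members of the heat shock chaperone system: the HSP70 genes Hspa1a, Hspa1b and Hspa8, the HSP90 genes Hsp90aa1 and Hsp90ab1, the HSP110 gene Hsph1, the J-domain co-chaperone gene Dnajb1, the mitochondrial chaperonin genes Hspd1 and Hspe1, and Hsf1, which encodes the heat shock transcription factor. They were chosen by symbol, and all 10 were found among the 13406 genes of one table of expression values and the 14563 genes of the other. RNA was sequenced from bulk mouse acute myeloid leukaemia cells, in 14 libraries. All cells shared C57/BL6 background and origin in the spleens of terminally sick mice, and all carried a Tet-Off MLL-AF9 fusion linked to dsRED together with a vector for NRASG12D and the Tet-Off activator. In 4 libraries the cells had been cultured with doxycycline for 4 days, which shuts off the MLL-AF9 vector, and in 4 they were left untreated. In 3 further libraries the cells had been transduced with an Id2-GFP retrovirus and in 3 with a control-GFP retrovirus, and GFP-positive cells had been sorted 2 days later. The Id2 protein binds E proteins, a family of transcription factors, and keeps them off DNA. No library used here combines doxycycline with cells lacking the Tet-Off vector, so loss of MLL-AF9 and other effects of the drug cannot be told apart. The labels do not tell whether replicates stem from different animals, and each p-value therefore covers the spread between these libraries, part of which may be technical. Pairs of the doxycycline set are labelled TRIMA2-M1B1, TRIMA2-M3B1, TRIMA2-M4B1 and TRIMA1-M4B1 for replicates 1 to 4, and the labels do not define these names.

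Heat shock proteins hold unfolded or partly folded proteins and help them reach or regain their native shape. HSP70 proteins bind short exposed stretches, J-domain proteins deliver clients to them and stimulate their ATPase, HSP110 proteins exchange their nucleotide, HSP90 dimers act on late folding states of kinases and receptors, and the HSP60 and HSP10 chaperonins enclose proteins inside mitochondria. HSF1 binds heat shock elements, arrays of inverted GAA units, and raises the transcription of many of these genes under stress, while Hspa8 and Hsp90ab1 are the forms expressed in most unstressed cells. Leukaemia cells, like other dividing cells, depend on HSP90 and the chaperonins for the folding of signalling and mitochondrial proteins.

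Heat shock elements were sought in the RefSeq promoter windows (assembly GRCm38.p6, 250 bases before to 50 after each start), because the pairs Hspd1 with Hspe1 and Hspa1a with Hspa1b are neighbours that could share such elements. A pair of units was taken as GAANNTTC or TTCNNGAA, each of which is its own reverse complement, so that 1 search covers both strands. A longer array was taken as 2 such pairs that overlap in their middle unit, which makes 3 units in a row. The pair occurred in 15.1% of 32851 windows and the array of 3 units in 0.603%. Windows were found for Hspa1a, Hspa1b, Hsph1, Dnajb1, Hspd1 and Hspe1. Hspa8, Hsp90aa1, Hsp90ab1 and Hsf1 were not matched there.

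The sequence between the starts of Hspd1 and Hspe1 is shown because the Hspe1 window and 1 of the 2 windows of Hspd1 hold the same array, and the array of Hsph1 because it was the only other one among the members found. Capitals mark the GAA and TTC units, and each line is read 5′ to 3′ on the strand of the gene named.
Hspe1: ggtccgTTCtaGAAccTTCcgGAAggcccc
Hspd1: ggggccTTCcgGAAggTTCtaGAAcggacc
Hsph1: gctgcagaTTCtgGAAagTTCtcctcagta
The first 2 lines are the 2 strands of chr1:55088053-55088082, which holds 3 overlapping pairs, lies 89 bases before the RefSeq start of Hspe1 (plus strand) and 144 bases before a start of Hspd1 (minus strand), and falls in a 5′ untranslated exon of the transcript Hspd1-202 and an intron of Hspd1-203. The other Hspd1 window, at the outermost start of the gene, held no match of either kind. The Hsph1 array lies at chr5:149636279-149636308 on the minus strand, 15 bases after a RefSeq start, in an untranslated exon or an intron depending on the transcript. The Dnajb1 windows held no match, which says only that these letters do not occur in them.

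Hspa1a and Hspa1b lie side by side on the minus strand of chromosome 17, 9951 bases apart, and their upstream sequences are shown because they are nearly the same. Capitals mark the single pair of units in each.
Hspa1a: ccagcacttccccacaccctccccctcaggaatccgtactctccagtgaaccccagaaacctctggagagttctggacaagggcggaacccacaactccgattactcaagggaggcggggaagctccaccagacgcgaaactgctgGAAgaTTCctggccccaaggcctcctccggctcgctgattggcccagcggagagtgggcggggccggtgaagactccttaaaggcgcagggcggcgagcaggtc
Hspa1b: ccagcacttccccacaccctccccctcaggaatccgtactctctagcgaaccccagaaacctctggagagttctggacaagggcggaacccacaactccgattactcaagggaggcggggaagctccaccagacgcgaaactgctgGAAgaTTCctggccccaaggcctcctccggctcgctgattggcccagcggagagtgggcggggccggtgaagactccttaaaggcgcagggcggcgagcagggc
These are the 250 bases before each start, at chr17:34972157-34972406 for Hspa1a and chr17:34959239-34959488 for Hspa1b, and the pair of units lies 104 bases before the start in both. The sequences were identical at 247 of 250 positions (98.8%). The transcripts are alike as well: 58.8% of the 50-base stretches of the Hspa1a transcript occur in that of Hspa1b. How reads from shared stretches were counted is not stated in the sources used here. The levels of the 2 genes, separate and summed, are therefore uncertain. No 50-base stretch was shared by Hsp90aa1 and Hsp90ab1.

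The libraries held 17922644 to 25959766 reads on tabled genes in the doxycycline set and 14051150 to 14948487 in the Id2 set. All 11 myeloid leukaemia markers were measured in both sets, and after doxycycline 6 of them rose and 4 fell, with summed levels of 3305 to 3691 CPM untreated and 5899 to 6711 CPM with doxycycline. Of the markers of other cells, 1 of 9 for T and NK cells, 1 of 6 for B cells and none of 7 for erythroid cells were in the doxycycline table, with summed levels of at most 1.06 CPM for T and NK cells and 22.8 CPM for B cells (CPM are reads relative to a library's scaled size). The T and NK cell marker, Lck, fell after doxycycline, from levels of at most 1.06 CPM, and the B cell marker, Cd79b, did not pass. Of 6 markers of stromal and endothelial cells 2 were measured, Pecam1 and Pdgfrb, and both fell, from a sum of 293 to 320 CPM untreated to 76.5 to 111 CPM with doxycycline, while Cdh5, Kdr, Col1a1 and Col1a2 were not in the table. Markers of macrophages moved with the treatment: all 10 rose after doxycycline, and their summed level was 491 to 767 CPM in untreated and 4232 to 5307 CPM in doxycycline libraries. In the Id2 set 6 of these 10 markers were measured and none passed the test, with sums of 250 to 434 CPM under control-GFP and 291 to 738 CPM under Id2-GFP. Pecam1 and Pdgfrb summed to 277 to 382 CPM under control-GFP and 216 to 227 CPM under Id2-GFP, and no marker of any list passed the test there. The authors' scaling factors, read from the values, were 1.07 to 1.101 in untreated and 0.891 to 0.951 in doxycycline libraries. The part of these markers and of the scaling in the chaperone values was not tested beyond the rescaled fits given below, and in bulk RNA fewer cells of a type and less RNA per cell cannot be told apart.

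Across the doxycycline set the order of the 10 genes, on the scale of CPM per kilobase of exon, was the same in untreated and doxycycline libraries. Exon length was that of all annotated exons of a gene merged, whichever transcripts the cells expressed, and the order depends on it. In CPM alone, Hsph1 at 70.3 untreated lay above Dnajb1 at 55.8. Hsp90ab1 led with 742 ± 43.3 CPM per kb (SD, n = 4) untreated, followed by Hspa8 with 278 ± 4.82, Hsp90aa1 with 188 ± 9.76 and Hspd1 with 123 ± 7.08. Hspe1, the small lid of the mitochondrial chaperonin, was at 49.2 ± 3.196 CPM per kb, and Dnajb1, Hsph1 and Hsf1 lay between 6.46 and 17.4. The inducible genes closed the order, Hspa1b at 0.610 ± 0.0913 and Hspa1a at 0.439 ± 0.0739 CPM per kb. With doxycycline the last 2, at 0.769 ± 0.275 and 0.568 ± 0.278, differed by less than their spread, whereas each other pair of neighbours differed by more than the sum of their SDs.

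After doxycycline 7 of the 10 genes fell and none rose, against 33.8% of all 13406 genes that fell and 31.3% that rose (limma, adjusted p under 0.05 over all genes). Hspd1, Hsp90aa1, Hsp90ab1, Hsph1, Hspe1, Dnajb1 and Hsf1 fell, whereas Hspa8, Hspa1a and Hspa1b did not pass the test. In 8 of the 10, the 7 that fell and Hspa8, every doxycycline library was below every untreated library, against 31.1% of all genes. These 8 were therefore also lower in 4 of 4 pairs of libraries that share a label, which adds nothing to that count. The median log2 fold change of the 10 genes was -0.35, and that of all genes was -0.03. The members' summed reads took 0.480% to 0.529% of reads on tabled genes in untreated and 0.293% to 0.335% in doxycycline libraries. These shares leave out the authors' scaling factors. In CPM, which include those factors, the members summed to 4492 to 4822 untreated and 3292 to 3576 with doxycycline.

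**Figure D1:**
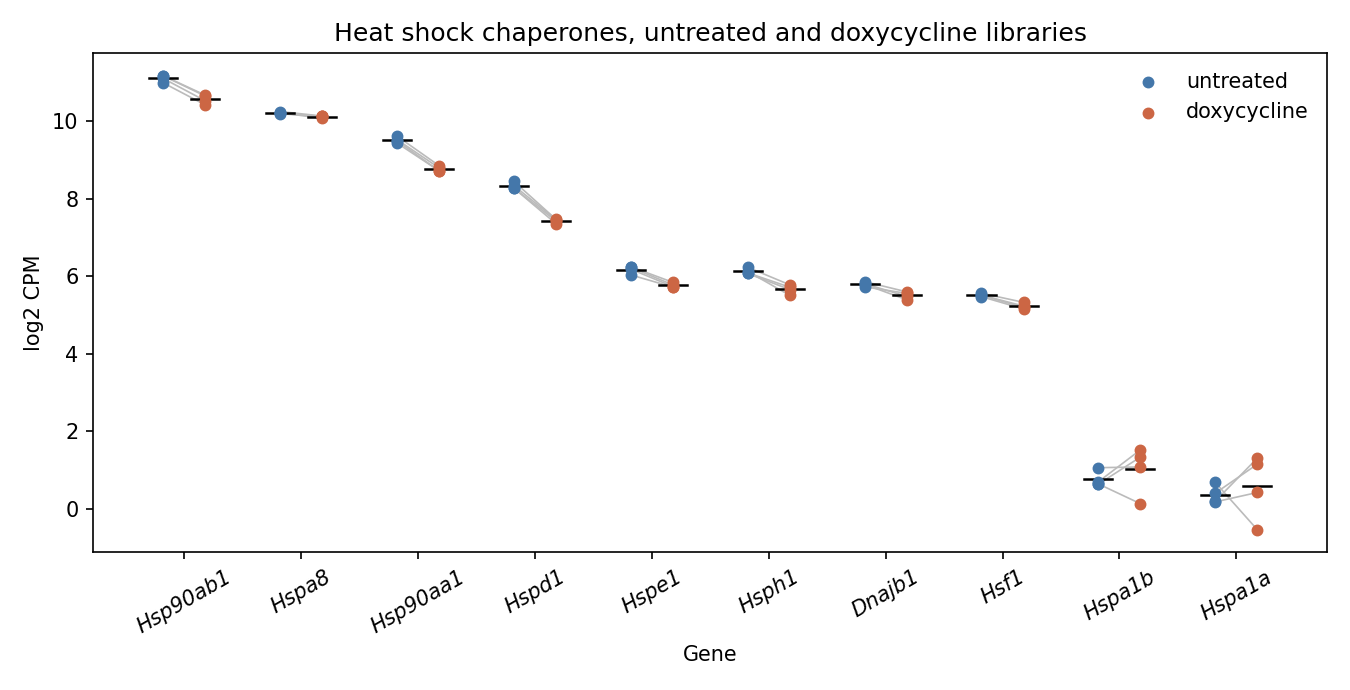
Level of each gene in log2 CPM in 4 untreated (blue) and 4 doxycycline (orange) libraries; black bars are group means and grey lines join libraries with the same pair label. From Hsp90ab1 to Hsf1 the orange points lie below the blue ones for each gene, while those of Hspa1b and Hspa1a spread above and below.

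Hspd1, which encodes the mitochondrial HSP60 that folds imported proteins, fell most of the 10. Its level was 350.4, 311, 325 and 311 CPM in untreated replicates 1 to 4 and 178, 165, 177 and 173 CPM in doxycycline replicates 1 to 4. The groups were far apart and the doxycycline libraries lay close together. The log2 fold change was -0.91 ± 0.05 (SE, limma adjusted p = 7.7e-07), which is 0.534 times the untreated level (95% interval 0.493 to 0.578).

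Hspe1, which encodes HSP10, the partner that closes the HSP60 chamber, fell less. It was at 73.0, 76.1, 75.4 and 65.8 CPM untreated and at 53.3, 57.6, 55.0 and 52.9 CPM with doxycycline, again without overlap. Its log2 fold change was -0.41 ± 0.06 (SE, limma adjusted p = 1.7e-04). The first exons of Hspd1 and Hspe1 overlap by 112 bases on opposite strands, and no source used here states a stranded count, so reads there cannot be assigned to one gene.

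The ratio of Hspd1 to Hspe1 within each library was examined after these values were seen. In CPM it was 4.80, 4.08, 4.31 and 4.73 in untreated replicates 1 to 4 and 3.33, 2.86, 3.22 and 3.26 in doxycycline replicates 1 to 4. The groups did not overlap, so the ratio was also lower in 4 of 4 pairs. The log2 ratio went from 2.16 ± 0.11 (SD, n = 4) to 1.66 ± 0.10 (SD, n = 4), a difference of -0.50, with an exact two-sided permutation p of 0.0286, the smallest that 4 against 4 libraries allow, and 0.171 after Benjamini-Hochberg adjustment over 6 ratio tests. Both genes that share the array printed above were thus lower, Hspd1 by more than Hspe1 in each pair of libraries. The adjusted p cannot decide on the difference between them. With so few libraries, no outcome of the 6 ratio tests could have passed the threshold after adjustment.

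**Figure D2:**
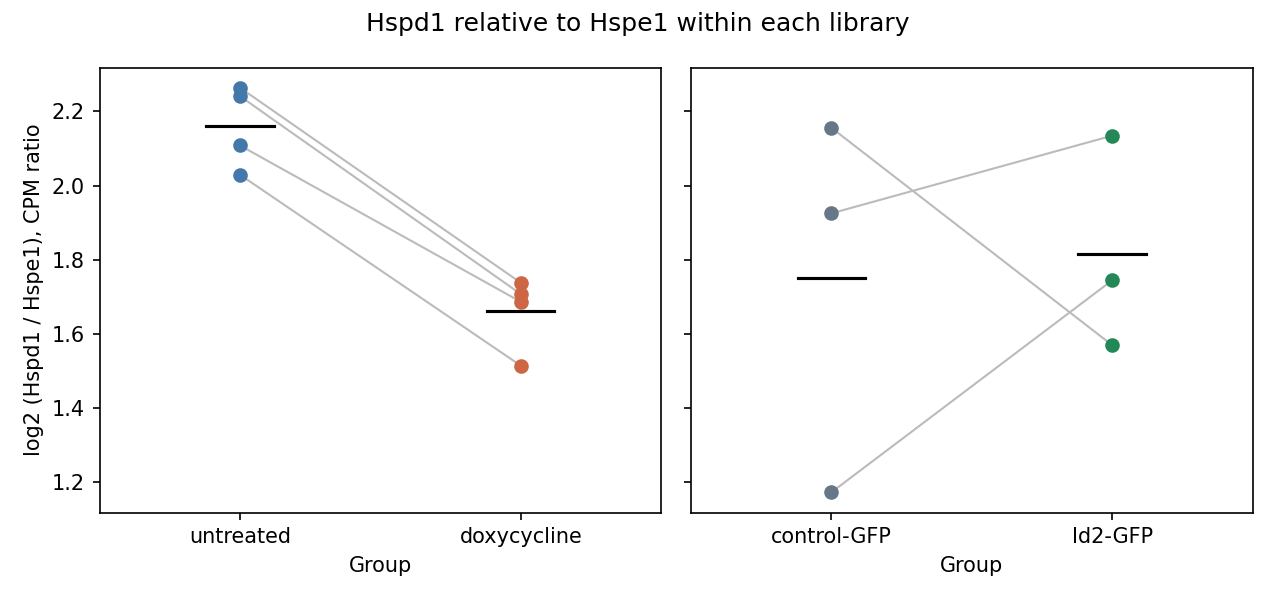
Log2 of the CPM ratio of Hspd1 to Hspe1 in each library, in the doxycycline set (left) and the Id2 set (right); grey lines join libraries of one pair and black bars are group means. The 4 doxycycline libraries lie between 1.51 and 1.74, under the 4 untreated ones at 2.03 to 2.26, while the Id2-GFP and control-GFP libraries overlap.

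The HSP90 genes both fell. Hsp90aa1, the stress-inducible cytosolic form, was at 789, 697, 740.3 and 725 CPM untreated and at 464, 424, 446 and 424 CPM with doxycycline, so that the doxycycline libraries were all below the untreated ones. Its log2 fold change was -0.75 ± 0.06 (SE, limma adjusted p = 3.0e-06), or 0.596 times the untreated level (95% interval 0.546 to 0.650).

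Hsp90ab1, the form expressed in most cells, was at 2213, 2317, 2323 and 2045 CPM untreated and at 1482, 1614, 1640.05 and 1377 CPM with doxycycline. These groups did not overlap either, and replicate 4 was the lowest library in both. Its log2 fold change was -0.54 ± 0.08 (SE, limma adjusted p = 2.5e-04). The CPM ratio of Hsp90aa1 to Hsp90ab1 was 0.356, 0.301, 0.319 and 0.355 in untreated replicates 1 to 4. In doxycycline replicates 1 to 4 it was 0.313, 0.262, 0.272 and 0.308. The log2 ratio was thus lower in 4 of 4 pairs, by -0.20 in the mean. The groups overlapped, and the test used leaves out the pairing (exact two-sided permutation p = 0.114, adjusted p = 0.343). Quantile normalization turned the mean difference of the log2 ratio to 0.26.

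Hspa8 and its helpers differed in how far they moved. Hspa8, the constitutive HSP70, was at 1197, 1223, 1186 and 1175 CPM untreated and at 1084, 1129, 1121 and 1124 CPM with doxycycline. Every doxycycline library was below every untreated one, yet the difference was small, with a log2 fold change of -0.10 ± 0.05 (SE, limma adjusted p = 0.101, 95% interval -0.21 to 0.01). Because the other abundant members fell more, Hspa8 made up 24.6% to 26.2% of the members' reads in untreated and 31.4% to 34.2% in doxycycline libraries. Scaled to library totals, not by the authors' factors, its log2 fold change was -0.34 (limma adjusted p = 0.000418), where the median of all genes was -0.27, and with quantile normalization it was -0.54 (limma adjusted p = 3.3e-05).

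Hsph1, an HSP110 that serves HSP70 as a nucleotide exchange factor, was at 75.5, 70.1, 67.5 and 68.2 CPM untreated and at 55.1, 45.6, 50.6 and 52.8 CPM with doxycycline. The log2 fold change was -0.46 ± 0.07 (SE, limma adjusted p = 1.8e-04). Dnajb1, an HSP40 that delivers clients to HSP70, was at 58.4, 55.6, 56.2 and 53.2 CPM untreated and at 48.6, 42.2, 44.8 and 47.3 CPM with doxycycline. Doxycycline replicate 2 was the lowest library for both genes, and neither gene's groups overlapped. The log2 fold change of Dnajb1 was -0.29 ± 0.06 (SE, limma adjusted p = 0.0013).

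Hsf1, the transcription factor of the system, was at 44.6, 47.4, 45.9 and 45.6 CPM untreated and at 35.8, 40.3, 37.6 and 36.8 CPM with doxycycline. The groups did not overlap, and the log2 fold change was -0.29 ± 0.05 (SE, limma adjusted p = 6.8e-04). The RNA level of Hsf1 is not a measure of the activity of the protein, which is set mainly after translation.

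The inducible HSP70 genes Hspa1a and Hspa1b were near the lower limit of the tables, with 34 to 109 reads for both together per library of the doxycycline set. Hspa1b was at 1.56, 1.62, 2.09 and 1.56 CPM untreated and at 1.097, 2.88, 2.12 and 2.53 CPM with doxycycline. Hspa1a was at 1.60, 1.15, 1.13 and 1.32 CPM untreated and at 0.689, 2.48, 1.34 and 2.23 CPM with doxycycline. Both were lower than untreated in pair 1 and higher in the other 3 pairs, so the groups overlapped. The log2 fold changes were 0.26 ± 0.29 for Hspa1b (SE, limma adjusted p = 0.456) and 0.22 ± 0.38 for Hspa1a (SE, limma adjusted p = 0.628). Their 95% intervals were -0.40 to 0.91 and -0.64 to 1.08. Neither a rise nor a moderate fall could thus be told from no change in these libraries. Both lower bounds lay above the log2 fold changes of Hspd1 and Hsp90aa1. That of Hspa1a lay within the 95% interval of Hsp90aa1, -0.87 to -0.62. The difference of these 2 genes from Hspd1 and Hsp90aa1 was not tested. Without doxycycline replicate 1, Hspa1b passed the test with a log2 fold change of 0.55 (limma adjusted p = 0.0317). With library totals Hspa1a turned to -0.02 and Hspa1b went to 0.02. The log2 ratio of Hspa1a to Hspa1b differed by -0.04 between the groups (exact two-sided permutation p = 0.914).

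Other scalings changed the size of these falls more than their calls. With library totals, 6912 of the 9614 genes past the threshold fell, against 4535 of 8733 with the authors' factors, and the median of the 10 genes was -0.59 where that of all genes was -0.27. All log2 fold changes are then lower by about 0.24. Dnajb1 and Hsf1 were at -0.53 each, Hsph1 at -0.70 and Hspe1 at -0.65, and with quantile normalization Hsp90ab1 was at -1.24. The 7 genes that fell passed the test under every alternative run, including the fits without 1 library or 1 pair. Doxycycline replicate 3, the only doxycycline title without the suffix R, which the labels do not define, was neither the highest nor the lowest library for any of the 10 genes.

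**Figure D3:**
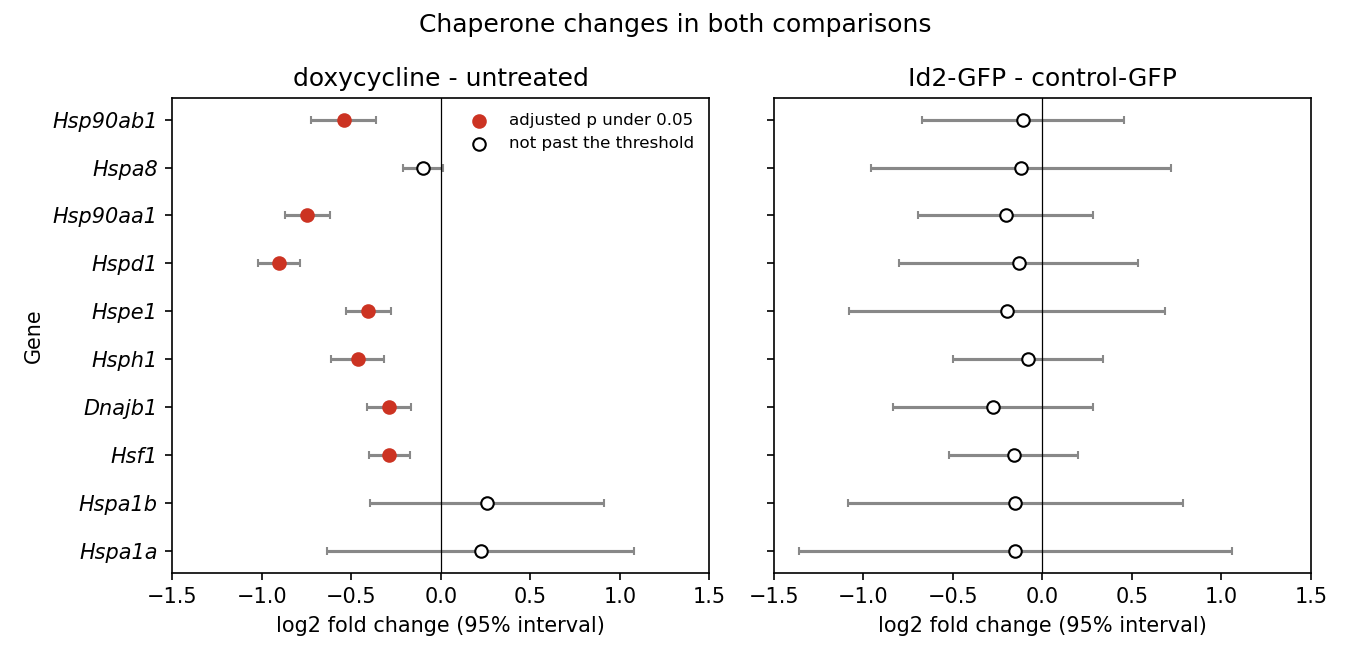
Log2 fold change of each gene with its 95% interval, for doxycycline against untreated (left, n = 4 and 4) and Id2-GFP against control-GFP (right, n = 3 and 3); filled red points passed the limma test. On the left 7 intervals lie wholly below 0, while on the right all 10 cross 0.

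The partners of these chaperones, taken from lists of related genes, were read beside the shares of all genes given above, 33.8% fallen and 31.3% risen. TRiC, the cytosolic chaperonin that folds actin and tubulin, and prefoldin, which delivers clients to it, moved most uniformly: 12 of 14 fell and 1 rose, with a median log2 fold change of -0.39. Cct3 went from 254 ± 5.34 to 154 ± 4.86 CPM (SD, n = 4 each), a log2 fold change of -0.72, and Cct6a was at -0.71, Tcp1 at -0.62 and Cct2 at -0.53. These 4 encode subunits of the TRiC ring, and the 8 TRiC genes measured all fell. Pfdn5, a prefoldin subunit named after its values were seen, rose by 0.42 on the log2 scale.

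Among cytosolic partners of HSP70 and HSP90, 36 of 44 listed genes were measured, with a median of -0.12. Of these, 17 fell, 3 rose (5 with the replicate block, 0 with library totals) and 16 did not pass. The shares of all genes were 33.8% fallen and 31.3% risen. Fkbp4, an immunophilin co-chaperone of HSP90, went from 210 ± 7.01 to 113 ± 7.73 CPM (SD, n = 4 each), a log2 fold change of -0.89. Ppid, the cyclophilin partner of HSP90, was at -0.68, and Dnajc2, a J protein of the ribosome, at -0.70. Bag2, a co-chaperone of HSP70, was at -1.997, from 14.9 ± 1.11 to 3.78 ± 0.675 CPM (SD, n = 4 each). Hspa2, an HSP70 best known from male germ cells, was named after its values were seen: it was at 413, 121, 210 and 121 CPM untreated and at 10.99, 11.8, 9.93 and 8.32 CPM with doxycycline, a log2 fold change of -4.21 ± 0.35 (SE, limma adjusted p = 6.0e-06). Its untreated libraries were spread widely, and all of them were above the doxycycline libraries. Hspa4, an HSP110 relative of Hsph1 also named after its values were seen, fell by 0.24 on the log2 scale.

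Among mitochondrial chaperones and proteases 8 of 18 fell and 1 rose (2 rose without untreated replicate 3, any 1 of doxycycline replicates 2, 3 and 4, or both libraries of pair 3 or 4, and with median-of-ratios scaling). Their median of -0.04 was close to that of all genes, of which 33.8% fell and 31.3% rose, and 9 of the 18 did not pass. Hspa9, the mitochondrial HSP70, went from 367 ± 10.4 to 249 ± 7.72 CPM (SD, n = 4 each), a log2 fold change of -0.56. Dnaja3, its J protein, and Trap1, the mitochondrial HSP90, were at -0.42 each, and Dnajc15, a J protein of the inner membrane, rose by 0.89 on the log2 scale. Among endoplasmic reticulum chaperones 10 of 19 fell and none rose (1 rose without doxycycline replicate 4), against 33.8% and 31.3% of all genes. Their median was -0.14. Dnajc10, a reductase, was at -0.99, Calr, the lectin chaperone calreticulin, at -0.82, Manf at -0.48 and Herpud1 at -0.41. The HSP70 and HSP90 of this compartment, looked up after the list was read, did not pass: Hspa5 had a log2 fold change of 0.05 (limma adjusted p = 0.470) and Hsp90b1 one of -0.11 (limma adjusted p = 0.0773), though both fell with library totals. With library totals 28 of the cytosolic partners, 13 of the mitochondrial list and 18 of the endoplasmic reticulum list fell, where 51.6% of all genes fell.

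Immediate early genes, which cells raise within minutes of handling or signalling, went the other way: 17 of 18 rose and none fell, against 31.3% and 33.8% of all genes, with a median of 1.90. Klf6, Klf2, Btg2 and Atf3, all transcription regulators, were at 1.98, 1.96, 1.75 and 3.21 on the log2 scale. Their part in the chaperone values was not tested.

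**Figure D4:**
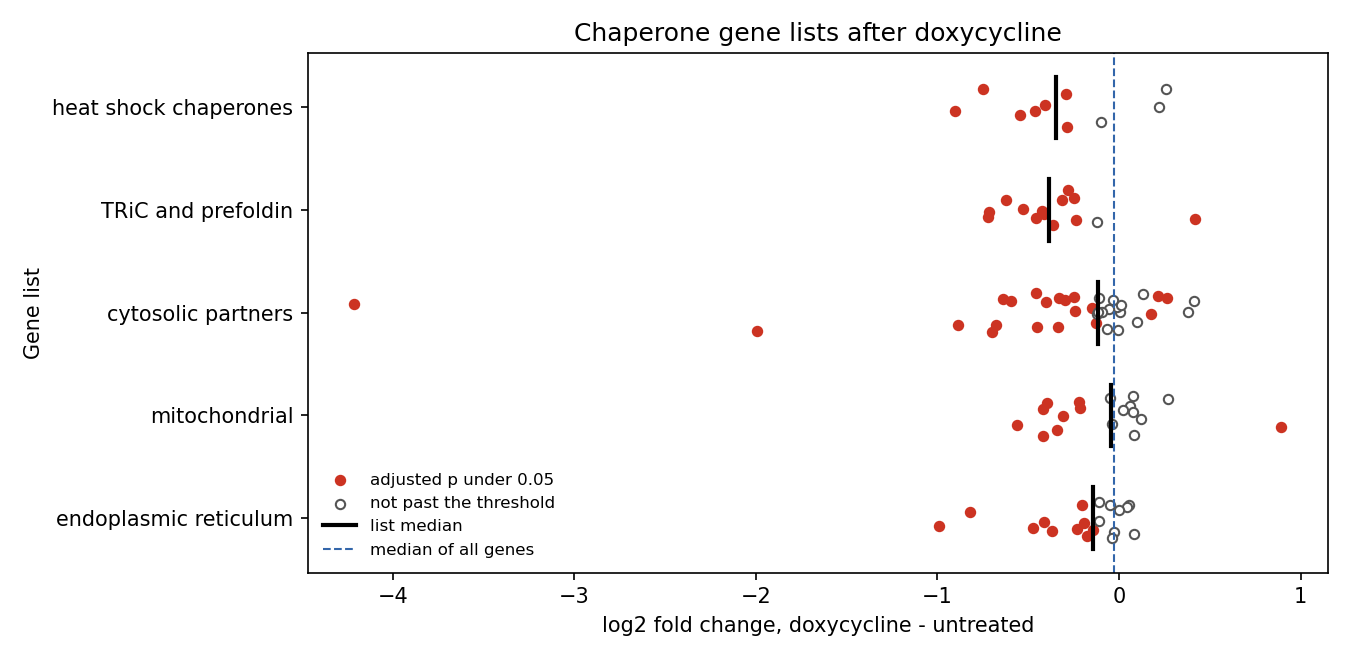
Log2 fold change after doxycycline of each measured gene in 5 chaperone lists (vertical positions within a list are spread at random for legibility); filled red points passed the limma test, black bars are list medians and the dashed line is the median of all genes at -0.03. The medians of the heat shock chaperones and of TRiC with prefoldin lie at -0.35 and -0.39, and those of the other 3 lists between -0.14 and -0.04.

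How the members varied together was read from the deviations from the group means over the 8 libraries of the doxycycline set, among 9644 other genes; these 8 points share 4 pair labels, and the correlations are a description only. For Hspa1b the most alike were Ankrd32 (Pearson r = 0.948), Rcn2 (0.945), Cherp (0.920), Rfx1 (0.901) and Mrpl36 (0.898), and Hspa1a was at 0.846. For Hsp90ab1 they were Lpar2 (0.980), Saal1 (0.966), Chd2 (0.966), Eef1g (0.965) and Ankrd13b (0.964). Of the 9644 genes, 4 had an r above 0.9 with Hspa1b and 67 with Hsp90ab1, so those named for Hsp90ab1 are only the first of many. Among the members Hspe1 stood nearest to Hsp90ab1, at 0.828, and Hsp90aa1 was at 0.01.

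In the Id2 set none of the 10 genes passed the test, in a comparison where 0% of the 14563 genes fell and 0.0137% (2 genes) rose, and 357 had an unadjusted p under 0.05, none of the 10 among them. With the replicate block 35 genes passed, 19 of which fell, and still none of the 10, nor did any with voom weights. All 10 were lower in the mean with Id2-GFP, by log2 fold changes of -0.28 to -0.08, each with a limma adjusted p of 0.998. Their median was -0.15, and that of all genes was -0.03. With array weights 6 of the 10 were lower. Only Hsf1 had every Id2-GFP library below every control-GFP library, against 3.77% of all genes. Hsf1 was therefore also lower in 3 of 3 pairs, and Dnajb1, whose groups overlapped, was lower in 3 of 3 as well. The difference in response between the doxycycline and Id2 sets was not tested, as the tables were normalized apart.

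The spread between control-GFP libraries was wide, and control-GFP replicate 3 was the highest library for 6 of the 10 genes. Its scaling factor was 0.913, where those of the other 5 libraries were 1.01 to 1.03. Of its reads on tabled genes the members took 0.529%, without the scaling factors. The other control-GFP libraries had 0.369% and 0.400%, and the Id2-GFP libraries 0.323% to 0.456%. In CPM the members summed to 5792 in control-GFP replicate 3, 3910 and 3639 in replicates 1 and 2, and 3213 to 4446 under Id2-GFP. Hspa8 was at 1148, 854 and 2002 CPM in control-GFP replicates 1 to 3 and at 1257, 849.864 and 1439 CPM in Id2-GFP replicates 1 to 3. The highest value was that of control-GFP replicate 3 and the groups overlapped. Hspe1 was at 64.0, 45.5 and 133 CPM in control-GFP and at 70.6, 51.5 and 70.8 CPM in Id2-GFP libraries, with the same library highest. The processed pseudogenes Hspe1-ps2, Hspe1-ps3 and Hspe1-ps6, listed in this table, had 140, 91 and 111 reads over the 6 libraries and were also highest in control-GFP replicate 3, and reads may be split between them and Hspe1.

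Without control-GFP replicate 3, 4 of the 10 genes were higher with Id2-GFP: Hspa8 by 0.22, Hspe1 by 0.24, Hsp90ab1 by 0.05 and Hspd1 by 0.01 on the log2 scale, none past the test. The pairs went different ways. In pair 1, 7 of the 10 genes were higher with Id2-GFP, and in pairs 2 and 3, 9 of the 10 were lower in each. Of all genes, 47.7%, 50.7% and 54.5% were lower with Id2-GFP in pairs 1, 2 and 3.

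Hsp90ab1 was at 1734, 1794 and 2446 CPM in control-GFP and at 1998, 1582 and 1927 CPM in Id2-GFP libraries. Hsp90aa1 was at 562, 594 and 719 CPM in control-GFP and at 651, 448 and 538 CPM in Id2-GFP libraries. Hspd1 was at 243, 203 and 301 CPM in control-GFP and at 310.1, 153 and 237 CPM in Id2-GFP libraries. In each of these 3 genes Id2-GFP replicate 2 was the lowest library and the groups overlapped.

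Hsf1 was at 47.0, 47.5 and 54.0 CPM in control-GFP and at 45.6, 44.7 and 42.3 CPM in Id2-GFP libraries, with a log2 fold change of -0.16 ± 0.15 (SE, limma adjusted p = 0.998, 95% interval -0.52 to 0.20). Dnajb1 was at 53.0, 43.8 and 75.0 CPM in control-GFP and at 51.1, 38.6 and 49.8 CPM in Id2-GFP libraries, and its log2 fold change of -0.28 ± 0.24 (SE, limma adjusted p = 0.998, 95% interval -0.83 to 0.28) went to -0.06 without control-GFP replicate 3. Hsph1 was at 58.0, 54.0 and 59.0 CPM in control-GFP and at 61.4, 44.3 and 57.5 CPM in Id2-GFP libraries. Hspa1a and Hspa1b together had 22 to 36 reads per library. Their 95% intervals reached from -1.36 to 1.06 and from -1.08 to 0.78. Changes within these intervals could not be told from no change. The intervals are not limits of detection, as they are centred on the estimates and not adjusted over all genes.

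**Figure D5:**
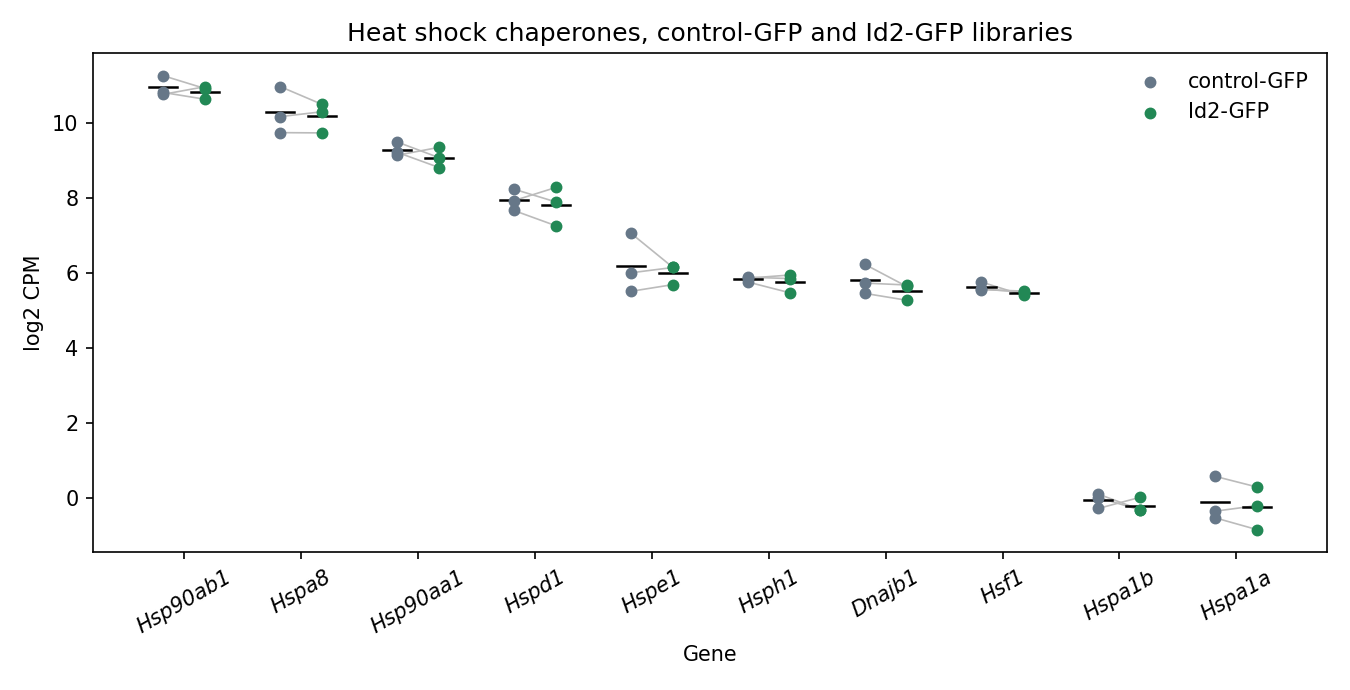
Level of each gene in log2 CPM in 3 control-GFP (grey) and 3 Id2-GFP (green) libraries; black bars are group means and grey lines join libraries with the same replicate number. The groups overlap for each gene but Hsf1, and the widest spread among abundant members is that of Hspa8 and Hspe1 in control-GFP libraries.

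The chaperone lists gave no call in the Id2 set either. None of 37 cytosolic partners, 18 mitochondrial, 19 endoplasmic reticulum and 14 TRiC and prefoldin genes passed the limma test. All 14 TRiC and prefoldin genes were lower in the mean, with a median log2 fold change of -0.16 where that of all genes was -0.03. The share of all genes lower in the mean was not counted, and the part of control-GFP replicate 3 in this direction was not tested. Their summed level was 2290 to 3824 CPM in control-GFP and 2076 to 2911 CPM in Id2-GFP libraries, so the groups overlapped. In the order of levels per kilobase of exon the genes ranked as in the doxycycline set. With control-GFP, Hspa8 (310.3 ± 139, SD, n = 3) and Hsp90aa1 (159 ± 21.1, SD, n = 3) differed by less than the sum of their SDs in CPM per kb, as did Hspd1 and Hspe1, Hsph1 and Hsf1, and Hspa1b and Hspa1a.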

How the data were processed

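Total RNA was extracted with Trizol and libraries were made with an Illumina TruSeq V2 kit, per the labels' protocols. Per the submitters' processing notes, the tools were limma, HTSeq, TopHat2 and CASAVA 1.8.2 and the build was mm10; roles are not given in the sources used here. The authors deposited log2 values: log2 CPM of reads plus 0.5 over a scaled library size, since 100% of the values gave whole reads within 0.01. The authors had left out low genes, judging by the values.

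Each table was fitted alone with limma 3.58.1 (R 4.3.3, eBayes with trend, no block, two-sided, Benjamini-Hochberg over all its genes). The threshold was an adjusted p under 0.05. The offset of 0.5 reads in the deposited log2 values shrinks the fold changes of low genes. Log2 ratios within libraries were compared by exact permutation tests that leave out the pairing, chosen after the values were seen. Loci are from GENCODE M21 (GRCm38, which mm10 denotes), and promoters from RefSeq. Of the related genes, up to 4 per list with the smallest p after doxycycline were named; others are marked where they appear. The members and lists were chosen with earlier results of these data known. The code was tested on simulated data. Pair labels and replicate numbers come from the titles; deviations from the group means correlated at 0.454 to 0.552 within doxycycline pairs and at 0.472 to 0.581 within Id2 pairs, and below 0 between all other libraries of opposite groups, so the numbers pair the libraries. Replicates differed by more than counting noise. Alternatives were scalings, variance models, a filter, an offset, the replicate block and leaving out libraries or pairs.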

Additional observations from a re-analysis of the deposited data

Results flagged for a closer look

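Hspa1b stood out within the untreated libraries: replicate 3, at a log2 CPM of 1.06, was set apart from the nearest of the other 3, at 0.70, by 0.857 of the whole range of the group, which reaches down to 0.64, which is above Dixon's 95% critical value for 4 libraries. Of 20 groups of 4 tested it was the only one, and chance gives about 1 in 20. Hspa1b had only 37, 37, 41 and 33 reads in untreated replicates 1 to 4, and the part of counting noise was not tested.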

How the results depend on the processing

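The count of 7 genes past the test after doxycycline was 7 or 8 under all alternatives, and the Id2 count was 0 under all. With the replicate block, that is the pairing of libraries, 7 and 0 of the 10 genes passed and no call on them changed, while the count over all genes in the Id2 set went from 2 to 35, of which 19 fell. It was 1 when genes with a mean log2 CPM under 1 were left out, and 0 to 3 without single libraries or pairs (0 without Id2-GFP replicate 1 or without pair 1 or 2, 1 without Id2-GFP replicate 3). Library totals turned Hspa1a after doxycycline to -0.019 and Hspa5 to -0.19, and quantile normalization turned Hspa5 to -0.25. Hsp90b1 passed with both, at -0.35 and -0.44. In the Id2 set quantile normalization turned Hspa8 to 0.048 and Hsp90ab1 to 0.11, and array weights turned Hspa8 to 0.24, Hsp90ab1 to 0.0026, Hspd1 to 0.067 and Hspe1 to 0.23. Quantile normalization turned the log2 ratio of Hsp90aa1 to Hsp90ab1 after doxycycline to 0.26 and that of Hspa1a to Hspa1b in the Id2 set to -0.032. The causes were not tested. Without single libraries or pairs, Id2 log2 fold changes ranged from -0.42 to 0.19 for Hspa1a, -0.39 to 0.22 for Hspa8, -0.26 to 0.050 for Hsp90ab1, -0.17 to 0.062 for Hsph1, -0.37 to 0.14 for Hspd1, -0.45 to -0.062 for Dnajb1 (-0.052 with array weights) and -0.54 to 0.24 for Hspe1. That of Hspa1a after doxycycline ranged from -0.076 to 0.70. The log2 ratio of Hspa1a to Hspa1b ranged from -0.20 to 0.11 after doxycycline and from -0.33 to 0.41 in the Id2 set, and that of Hspd1 to Hspe1 in the Id2 set from -0.22 to 0.27. Hspa1a and Hspa1b rest on 8 to 58 reads each per library.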
